A study of Mus musculus with 2 samples.

Results

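Plasma cells of visceral adipose tissue were taken from 2 single-cell libraries of CD45+ cells, as the cells with at least 20 Jchain UMIs and at least 5 UMIs of Mzb1 and Derl3 together. A UMI (unique molecular identifier) marks a single counted mRNA molecule. The rule found 164 plasma cells among 12474 cells of the normal water (NW) library and 246 among 12724 cells of the antibiotics (ABX) library, 410 of 25198 cells in all. The cells were thus selected on their Jchain, Mzb1 and Derl3 counts, which are given as a description. Both libraries came from eWAT of C57BL/6 wildtype mice aged 15 weeks and kept under SPF conditions, which drank normal water in the NW group and water with antibiotics in the ABX group. For its antibiotic cocktail the study's methods name ampicillin, vancomycin, streptomycin and colistin. CD45+ cells were enriched with magnetic beads after a tissue digestion common to both groups, and the sources do not state how many mice each library pooled. With 1 library per condition there was no test between conditions. All intervals are 95% intervals (exact Clopper-Pearson for shares, exact Poisson-based for ratios of levels) that cover counting error only, and the spread between mice is not in them.

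Plasma cells are the antibody-secreting end of the B cell lineage. Blimp-1 (Prdm1), IRF4 and XBP1 set up the state, in which the endoplasmic reticulum (ER) grows and most of the mRNA encodes immunoglobulin. IgM and IgA are secreted as polymers joined by the J chain (Jchain), while IgG is secreted as a monomer. Fat depots and the serous cavities are known sites of B-1 cells, innate-like B cells that secrete natural IgM. In B-1a cells a few germline pairs recur, above all Ighv11-2 with Igkv14-126 and Ighv12-3 with Igkv4-91, which bind phosphatidylcholine. Adipose plasma cells are kept by cytokines and chemokines of stromal and myeloid cells, among them BAFF, APRIL and CXCL12.

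The variable genes of the recurrent B-1a pairs are shown first, since Ighv11-2 was the most frequent heavy variable gene of the plasma cells and Ighv12-3 is set beside it. The reference segments are from GENCODE release M21 on GRCm38, 5′ to 3′ on the coding strand. Each is the last 150 bases of the V exon, with capitals from the codon of the conserved second cysteine to the segment's end, which is the germline part of the antigen-binding CDR3 loop.
Ighv11-2 (chr12:114048241-114048390, - strand): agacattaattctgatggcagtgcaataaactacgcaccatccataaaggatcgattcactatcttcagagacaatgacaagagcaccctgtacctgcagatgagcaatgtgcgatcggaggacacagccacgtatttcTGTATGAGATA
Igkv14-126 (chr6:67896493-67896642, + strand): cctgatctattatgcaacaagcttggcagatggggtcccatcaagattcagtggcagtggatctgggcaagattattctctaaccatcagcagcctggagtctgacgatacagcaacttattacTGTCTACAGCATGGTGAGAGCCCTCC
Ighv12-3 (chr12:114366521-114366670, - strand): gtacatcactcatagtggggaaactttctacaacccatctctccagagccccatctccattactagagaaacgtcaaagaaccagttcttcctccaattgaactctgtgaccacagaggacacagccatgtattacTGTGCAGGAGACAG
Igkv4-91 (chr6:68768555-68768704, - strand): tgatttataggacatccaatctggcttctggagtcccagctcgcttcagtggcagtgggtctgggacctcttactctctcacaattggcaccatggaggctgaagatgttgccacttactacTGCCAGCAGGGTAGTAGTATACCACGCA

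The 3 joining segments that carried most J UMIs of the Ighv11-2 plasma cells are given whole, with no capitals.
Ighj1 (chr12:113429781-113429833, - strand): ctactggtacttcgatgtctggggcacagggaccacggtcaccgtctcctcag
Igkj2 (chr6:70722916-70722954, + strand): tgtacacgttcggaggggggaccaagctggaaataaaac
Igkj4 (chr6:70723548-70723585, + strand): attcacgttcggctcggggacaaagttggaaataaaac

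The label was checked on markers the rule did not use. Sdc1 (CD138), the surface proteoglycan of plasma cells, was detected in 82.9% of the plasma cells in NW and 78.0% in ABX, against 2.93% and 1.08% of B cells. B cells here are cells with at least 1 Ms4a1 and 3 Cd79a UMIs and under 5 Jchain UMIs, 341 in NW and 928 in ABX, with median depths of 4852 and 4563 UMIs. Macrophages, at 6046 and 4503 UMIs, had Sdc1 in 2.01% and 1.38% of cells. Xbp1 had a UMI in every plasma cell, with a median of 19 in NW and 17 in ABX. Prdm1 was found in 79.9% and 80.5% of plasma cells, and in 10.3% and 4.31% of B cells. Tnfrsf17 (BCMA), the receptor for APRIL and BAFF, was found in 59.8% and 42.7% of plasma cells, and in 2.35% and 0.647% of B cells. In CPM, that is, counts scaled to 1000000 UMIs outside Ig genes and Jchain, Xbp1 was 2670 in NW and 2447 in ABX plasma cells and 183 and 77.3 in B cells, and Prdm1 412 and 352 against 40.4 and 12.7. Each of these markers was thus more abundant in plasma cells than in B cells of the same library. Detection also follows depth. Thinned to 3000 UMIs outside Ig genes, 58.0% of NW and 51.6% of ABX plasma cells would have had Sdc1. Igha, which the label also lists, did not mark them. Its median was 0 UMIs in both libraries, and any UMI was seen in 18.3% of plasma cells in NW and 13.8% in ABX. Of the mature B cell genes, Pax5 had a UMI in 3.66% and 7.32% of plasma cells and Cd22 in 4.88% and 5.69%. Ms4a1, used here to define B cells, was found in many more plasma cells, 44.5% in NW and 38.6% in ABX. Thinned to 3000 UMIs outside Ig genes, the Ms4a1 shares were 24.6% and 23.1%. Mature B cell transcripts were thus not absent from the plasma cells.

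**Figure D1:**
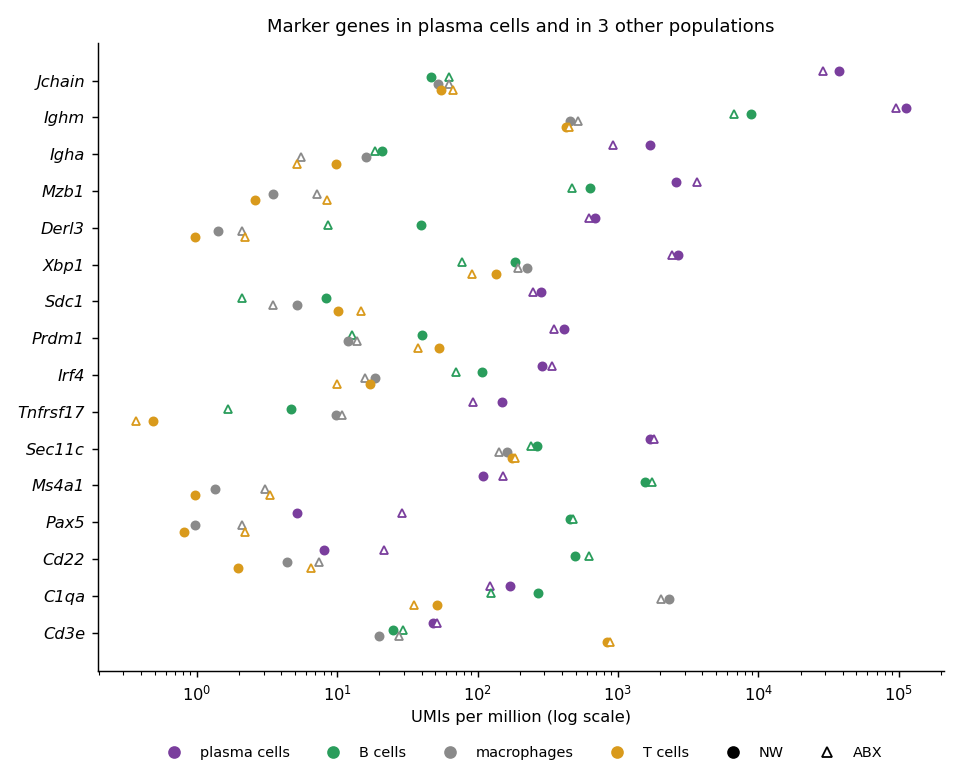
Level of 16 marker genes (vertical axis) in CPM on a log scale (horizontal axis, scaled to all UMIs for Jchain, Ighm and Igha and to UMIs outside Ig genes and Jchain for the others), summed over plasma cells, B cells, macrophages and T cells of the NW library (filled circles) and the ABX library (open triangles). Jchain, Mzb1 and Derl3 chose the cells, and Sdc1 sat at 284 CPM in NW and 249 in ABX plasma cells against 8.39 and 2.08 in B cells.

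The files listed 17662 NW and 17785 ABX barcodes with 79855126 and 64801767 gene UMIs. Plasma cells were deep, with a median of 14060 UMIs in NW (lowest 4082, highest 30479) and 12456 in ABX (3845 to 53177), against 5092 and 3845.5 over all cells. RNA of other cells was present in them. The 7 macrophage markers summed to a median of 12 UMIs (2 to 171) per NW and 7 (0 to 242) per ABX plasma cell, against 106 and 73 in macrophages, and T cell markers to a median of 1 in both. At 30 macrophage or 10 other-lineage UMIs, 27 NW and 34 ABX plasma cells would be left out, and values without them are given where they move a result. The part of mixed barcodes in the results was not tested beyond this. The libraries shared 371 barcode numbers, where 355.0 would coincide for random numbers. Neutrophil, endothelial and fibroblast markers stayed at or under 4 UMIs in every plasma cell except for fibroblast markers in ABX, where the highest cell had 51.

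The plasma cell share was 1.31% (1.12% to 1.53%) in NW and 1.93% (1.70% to 2.19%) in ABX, a ratio of 1.47 (1.21 to 1.79). B cells were 2.73% and 7.29% of cells, a ratio of 2.67 (2.36 to 3.01), so that plasma cells were 32.5% of plasma and B cells together in NW and 21.0% in ABX. At the edges of the rule, 2 NW and 6 ABX plasma cells had 20 to 39 Jchain UMIs, while 2 and 5 cells with enough Mzb1 and Derl3 had 10 to 19 and were not taken. Another 13 NW and 33 ABX cells had 20 or more Jchain UMIs but under 5 of Mzb1 and Derl3. Their immunoglobulin (Ig) share was like that of the plasma cells, with medians of 43.1% and 44.5%, but their depth was lower, with medians of 5840 and 7028 UMIs. Sdc1 had a UMI in 7 of the 13 and 23 of the 33.

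Ig genes and Jchain took a median of 46.3% of the UMIs of an NW plasma cell (14.7% to 61.9%) and 41.4% of an ABX plasma cell (1.97% to 62.3%). The median B cell of NW held 2.16%. Jchain itself had a median of 546.5 UMIs per cell in NW (22 to 1258) and 348.5 in ABX (20 to 1794), Ighm 1709 and 1367, and Igkc 3445.5 and 3000.5. The UMIs outside these genes were alike, with medians of 7277 and 7116. Because Ig mRNA is so large a part, levels of other genes are given as CPM on the scale without Ig genes and Jchain. Scaling by all UMIs instead moved the median gene by 0.13 on the log2 scale between the conditions.

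Nearly every plasma cell found by the rule made IgM. The rule required Jchain UMIs, and the J chain joins IgM and IgA but not the monomeric IgG. IgG plasma cells with little Jchain could thus have been missed. How far this moved the class shares was not tested. Ighm led the heavy constant UMIs in 156 of 164 NW cells (95.1%, 90.6% to 97.9%) and 236 of 246 ABX cells (95.9%, 92.7% to 98.0%), and the leading class held a median of 99.9% of a cell's heavy constant UMIs in NW. Class-switched cells were 7 (4.27%, 1.73% to 8.60%) and 10 (4.07%, 1.97% to 7.35%). IgA, the class of mucosal antibody, led in 2 NW cells (1.22%, 0.148% to 4.34%) and 1 ABX cell (0.407%, 0.0103% to 2.24%). These 3 cells held 99.3% of the Igha UMIs of NW plasma cells and 98.9% of those of ABX plasma cells, so the summed Igha level rests on them. IgG3 led in 3 NW cells and 1 ABX cell, IgG1 in 1 and 3, IgG2c in 1 and 3, and IgG2b in 0 and 2. In the 1 NW cell led by IgG1, that class held only 59.8% of the heavy constant UMIs, beside 1900 Ighm UMIs. This cell also met neither the kappa nor the lambda limit, and whether its barcode held more than 1 cell was not tested. The intervals of the IgM, IgA and switched shares overlapped between the libraries. Kappa light chains led in 92.7% (87.6% to 96.2%) and 93.5% (89.7% to 96.2%) of plasma cells, and lambda in 9 and 15 cells.

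Ighv11-2 was the most frequent heavy variable gene in both libraries, and its share differed between them. A leading Ighv gene (at least 5 UMIs and 50% of the cell's Ighv UMIs) could be called in 134 NW and 181 ABX plasma cells, on medians of 16 and 12 Ighv UMIs. Ighv11-2 led in 40 of the 134 NW cells (29.9%, 22.3% to 38.4%) and in 22 of the 181 ABX cells (12.2%, 7.78% to 17.8%), and these intervals do not overlap. Its light partner was Igkv14-126 in all 40 NW cells and in 20 of the 22 ABX cells, which makes this the recurrent B-1a pair whose segments are printed above. Igkv14-126, called with more UMIs per cell, led in 51 of 162 NW cells (31.5%) and 29 of 239 ABX cells (12.1%). All cells with this pair were of class IgM. The second recurrent B-1a pair, Ighv12-3 with Igkv4-91, was in 2 NW and 7 ABX plasma cells.

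**Figure D2:**
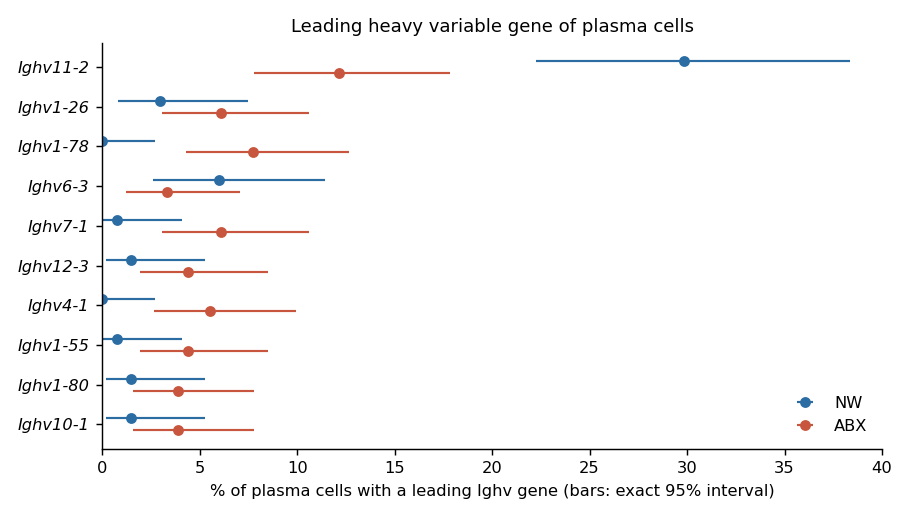
Share of plasma cells led by each of the 10 most frequent Ighv genes, in % of the cells with a leading Ighv gene, for NW (blue) and ABX (red) with exact intervals. Ighv11-2 stands at 29.9% in NW and 12.2% in ABX, and Ighv1-78 and Ighv4-1 led no NW cell.

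Other variable genes led few cells each. Ighv1-78 led 0 of 134 NW cells (up to 2.72%) and 14 of 181 ABX cells (7.73%, 4.29% to 12.6%), and Ighv4-1 led 0 and 10 (5.52%, 2.68% to 9.93%). Ighv7-1 led 1 NW and 11 ABX cells, of which 1 and 9 were with Igkv15-103, and Ighv1-26 led 4 and 11. Ighv6-3 led 8 NW and 6 ABX cells, and 3 of the NW cells were IgG3 with Iglv1. Among light chains, Igkv12-89 led 6 and 19 cells, Iglv1 7 and 15, and Igkv1-110 10 and 11. Plasma cells with the same class, heavy and light gene formed 16 shared pairings in NW, with 76 of 134 cells (56.7%), and 27 in ABX, with 117 of 176 cells (66.5%). Of all pairings 9 occurred in both libraries. Without the junction sequences, a shared pairing is not a clone.

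The joining segments of the Ighv11-2 cells were few. In NW these 40 cells carried 50 UMIs of Ighj1 and 1 of Ighj2 and 2 of Ighj4, and in ABX the 22 cells carried 25 UMIs of Ighj1 and 2 of Ighj4. Plasma cells led by other Ighv genes spread over all 4 segments, with 35, 64, 26 and 53 UMIs of Ighj1 to Ighj4 in NW and 40, 93, 31 and 74 in ABX. On the kappa side, the Ighv11-2 cells carried 573 UMIs of Igkj2 and 546 of Igkj4 in NW, and 349 and 260 in ABX, against 11 and 20 of Igkj1. Outside the plasma cells Ighv11-2 UMIs were rare. In all, 1 of 341 NW B cells and 12 of 928 ABX B cells had a UMI, none with 5. Macrophages had an Ighv11-2 UMI in 0.187% and 0.131% of cells, a background level for free RNA. B cells held a median of only 2.16% and 2.13% Ig and Jchain UMIs, so few could reach 5 UMIs of an Ighv gene. Igkv14-126 had a UMI in 28 NW (8.21%) and 62 ABX (6.68%) B cells, and 4 and 8 had 5 or more. In macrophages its shares were 1.36% and 0.613%. Use of the pair by B cells was thus not settled.

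Few genes outside the variable genes set the Ighv11-2 plasma cells apart. In this comparison within each library, made after the leading genes had been seen, 7 of 4391 genes (0.159%) were at least 2-fold higher in both libraries and 20 (0.455%) at least 2-fold lower. Il5ra, the interleukin 5 receptor subunit that B-1 cells carry, was 306 CPM in Ighv11-2 cells and 145.2 in the others in NW, and 386 and 145.3 in ABX. Its log2 difference was 1.08 (0.67 to 1.48) in NW and 1.41 (0.98 to 1.82) in ABX. Il5ra had a UMI in 77.5% and 86.4% of the Ighv11-2 cells and in 48.9% and 44.7% of the others. It was the 1 of 14 survival list genes past 2-fold in both libraries. Of the 5 genes tested of a list of B-1 and innate-like genes (the B-1 list), 0 were 2-fold higher and 0 lower in both. The medians of the B-1 list were -0.10 in NW and 0.46 in ABX. Wipf3, an actin regulator, was higher by 2.15 (1.36 to 2.98) and 1.86 (0.96 to 2.70). Slpi, a secreted inhibitor of serine proteases, had log2 differences of -2.70 and -4.89, with 4 and 2 UMIs in all Ighv11-2 cells. Slpi was detected in 10% of the Ighv11-2 cells and 12.8% of the others in NW, and in 9.09% and 25.2% in ABX. Top2a, a topoisomerase of dividing cells, had -2.12 and -1.58, on 3 and 6 UMIs in the Ighv11-2 cells. Its detection was 5% against 11.7% of the others in NW, but 18.2% against 13.8% in ABX. No gene of the secretory, ER or regulator lists passed 2-fold in both libraries, though the ER list had a median of -0.52 in ABX and -0.062 in NW. The Ig share of the Ighv11-2 cells had a median of 49.9% in NW and 47.3% in ABX, against 46.3% and 41.7% in cells with other Ighv genes.

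Next, the secretory programme was described against the B cells of the same library. Since the rule selected plasma cells, these differences carry no test. Of 8586 genes, 705 (8.21%) were at least 2-fold higher in plasma cells in both libraries and 595 (6.93%) at least 2-fold lower. Scaled by all UMIs, the counts were 317 and 1942. All 28 genes of the secretory list, which feed nascent chains into the ER and on to the Golgi, were among the higher ones, with a median log2 difference of 2.29 in NW and 2.48 in ABX. Sec11c, a subunit of the signal peptidase, was 1684 CPM in NW and 1809 in ABX plasma cells and 266 and 242 in B cells. Of the ER chaperones and folding enzymes 20 of 23 were higher (medians 2.56 and 2.88), of the ER-associated degradation genes 11 of 12 (2.58 and 2.74), and of the regulators 7 of 9 (1.81 and 2.28). The median of all genes was -0.031 and 0.026. Hspa5, the chaperone BiP, was 3546 and 3662 CPM in plasma cells and 712 and 574 in B cells.

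The genes furthest above B cells included several of no list. Chst1, a sulfotransferase, was 342 CPM in NW and 189 in ABX plasma cells and 1.57 and 0.625 in B cells. Prg2, known as the eosinophil major basic protein, was 468 and 427 against 2.10 and 3.13. Prlr, the prolactin receptor, was 163 and 154 CPM, with no UMI in NW B cells and 1 in ABX B cells. With NW B cells set at a floor of 3 counts, its NW log2 difference was 6.70, with a lower limit of 6.39. Bhlha15 (Mist1), a factor of secretory cells, was 213 and 170 against 3.15 and 2.08. Pycr1, a proline synthesis enzyme, was 157 and 109 against 2.10 and 0.834. Pls1, Wipi1 and Cacna1h were at least 5.56 higher on the log2 scale in both libraries. At the low end stood Fcer2a (CD23), Cr2 (CD21), Cd22 and the follicle-homing receptor Cxcr5, with NW differences from -6.78 to -5.93, and Cacna1i, B3gnt5, Zbtb32 and Cnn3. Of 19 B cell identity genes 14 were at least 2-fold lower in both libraries, with medians of -3.72 and -2.78, while 2 of 6 MHC class II genes were. Of 7 genes of the B-1 list 3 were lower and 0 higher, with medians of -0.92 and -0.58.

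The promoters of the ER genes are shown because these genes were high together in the plasma cells and the ER stress response element (ERSE, the letters CCAAT and CCACG with any 9 bases between them) is the known binding motif of ATF6 and XBP1 with NF-Y. Promoter entries were taken from RefSeq on GRCm38.p6, and each entry was searched whole on both strands. Each gene shown holds a match, and the 250 bases before its start site are printed. Pdia4, Sdf2l1 and Xbp1, searched in the same way, had no match to ERSE or to ERSE-II (given below) and are not printed. ERSE was present in 8 of 21 promoters of the ER chaperone list (38.1%), namely Hspa5, Hsp90b1, Pdia6, Calr, Canx, Dnajc3, Creld2 and Ero1b, against 37 of 27025 genes (0.137%). It was in 0 of 19 secretory list promoters, and in 1 of 11 (Syvn1) of the degradation list. ERSE-II (ATTGG and CCACG with any 1 base between them) was in Krtcap2, Dnajb11 and Herpud1 of these lists and in 12 of 27025 genes (0.0444%). The matches, on either strand, are in capitals, and begin 65 bases before the start site in Hspa5, 212 and 107 in Hsp90b1, 156 in Derl3 and 52 (ERSE-II) in Herpud1. Derl3 is a gene of the selection rule and on none of these lists.
Hspa5 (chr2:34771840-34772089, + strand): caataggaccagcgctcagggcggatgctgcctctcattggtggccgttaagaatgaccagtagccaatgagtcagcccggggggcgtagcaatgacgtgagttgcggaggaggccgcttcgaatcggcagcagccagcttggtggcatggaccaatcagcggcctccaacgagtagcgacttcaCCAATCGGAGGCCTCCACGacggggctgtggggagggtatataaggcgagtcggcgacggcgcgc
Hsp90b1 (chr10:86705445-86705694, - strand): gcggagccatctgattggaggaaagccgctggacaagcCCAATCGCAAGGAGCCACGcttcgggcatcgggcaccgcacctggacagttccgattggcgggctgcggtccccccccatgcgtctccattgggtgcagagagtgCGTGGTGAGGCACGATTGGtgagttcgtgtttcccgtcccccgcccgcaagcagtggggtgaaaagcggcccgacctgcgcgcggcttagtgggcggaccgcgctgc
Derl3 (chr10:75893148-75893397, + strand): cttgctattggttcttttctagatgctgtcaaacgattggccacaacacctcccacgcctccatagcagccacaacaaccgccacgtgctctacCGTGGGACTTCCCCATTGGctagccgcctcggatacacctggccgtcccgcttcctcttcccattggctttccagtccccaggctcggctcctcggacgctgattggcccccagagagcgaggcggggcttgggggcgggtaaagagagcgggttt
Herpud1 (chr8:94386179-94386428, + strand): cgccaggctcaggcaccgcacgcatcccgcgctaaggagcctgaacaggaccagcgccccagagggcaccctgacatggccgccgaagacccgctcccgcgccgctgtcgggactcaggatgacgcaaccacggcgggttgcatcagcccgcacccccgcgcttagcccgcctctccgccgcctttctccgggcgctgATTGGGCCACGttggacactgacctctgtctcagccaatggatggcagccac

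A match describes letters and not a bound site. Between the conditions 0 of the 23 genes of the ER list passed 1.5-fold, where 4.67% of all genes were higher and 5.04% lower, and the median log2 ABX over NW was 0.016. The summed list gave 0.055 (0.035 to 0.074) in all plasma cells, but -0.44 (-0.50 to -0.38) in the Ighv11-2 cells and 0.15 (0.13 to 0.18) in the cells with other Ighv genes. In B cells it gave -0.43, in macrophages -0.36 and in T cells -0.21.

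Proliferation transcripts were higher in ABX plasma cells. The 12 genes of the list, which act in DNA synthesis and mitosis, summed to 302 CPM over the NW plasma cells and 1513 CPM over the ABX plasma cells, on 409 and 3202 UMIs, a log2 ratio of 2.32 (2.18 to 2.48). In B cells the same list gave -0.92 (-1.02 to -0.82), in macrophages -0.63 and in T cells 0.12. Mki67 went from 96.7 to 459 CPM, Top2a from 42.8 to 275, Birc5 from 10.3 to 79.4 and Rrm2, the ribonucleotide reductase subunit, from 4.43 to 125. Few cells carried them. At least 3 UMIs of the list were found in 23 NW plasma cells (14.0%, 9.10% to 20.3%) and 60 ABX plasma cells (24.4%, 19.2% to 30.3%), and at least 10 in 6 (3.66%, 1.35% to 7.79%) and 30 (12.2%, 8.38% to 16.9%). With every cell thinned to 3000 UMIs outside Ig genes, which left out 5 NW and 8 ABX cells, the shares at 3 UMIs were 4.66% and 14.0%. The 30 ABX cells with 10 or more held 92.7% of the list's ABX UMIs, and the highest single cell held 9.96% in ABX and 28.9% in NW. Without the cells at 3 or more UMIs the list's log2 ratio was 0.49 (0.04 to 0.95). In B cells, 4.99% and 3.34% had 3 or more.

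Cells with proliferation UMIs had a lower Ig share and more UMIs outside Ig genes. The limit is a raw count of UMIs outside Ig genes, which deeper cells reach more easily, so both are in part fixed by it. Their median Ig and Jchain share was 36.8% in NW and 30.3% in ABX at 3 or more UMIs, and 28.0% and 22.3% at 10 or more, against 47.3% and 43.7% under 3. Their UMIs outside Ig genes had medians of 11004 and 10472, against 7181 and 6416. At 3 or more UMIs Ighm counts differed little, with medians of 1649 and 1280 against 1745 and 1377. Jchain had 559 and 251 against 545 and 378.5. At 10 or more, Ighm had 1507.5 and 1067.5 and Jchain 427.5 and 136, lower than under 3 in both libraries. The cells with 3 or more proliferation UMIs were not 1 expanded pairing. The 44 ABX cells with both variable genes called held 29 different pairings, the largest with 3 cells, and the 20 NW cells held 13, the largest with 5. A group of ABX cells with little Ig mRNA weighed on these sums. Under 20% Ig and Jchain were 19 ABX and 2 NW plasma cells, and the 19, with a median of 19546 UMIs, held 55.3% of the ABX proliferation UMIs and 83.6% of the Pax5 and 69.6% of the Cd22 UMIs. The lowest, at 1.97% Ig and Jchain, had 319 proliferation UMIs. Sdc1 was detected in 12 and Ms4a1 in 10 of the 19, so the label holds less well for them. Without the cells under 20% the proliferation ratio was 1.42 (1.26 to 1.58), and 14.2% of NW and 20.7% of ABX cells had 3 or more proliferation UMIs, with overlapping intervals (9.22% to 20.5% and 15.6% to 26.6%). By class, all 23 NW cells and 55 of the 60 ABX cells were IgM. Ighv11-2 cells had a small part in this, with 5 of 40 in NW and 3 of 22 in ABX at 3 or more UMIs, against 15 of 94 and 41 of 159 of the cells with other Ighv genes. The list stood at 166 CPM in the Ighv11-2 cells of both libraries (interval of the log2 ratio -0.72 to 0.69), and at 281 and 923 CPM in the cells with other Ighv genes (1.72, 1.52 to 1.92). A test of that difference over mice was not possible.

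**Figure D3:**
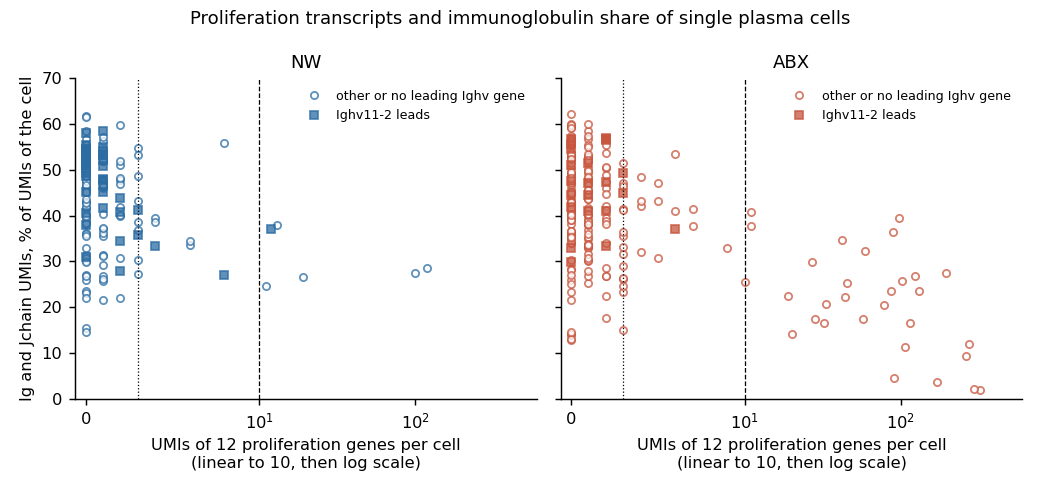
Ig and Jchain share of UMIs (vertical axis, %) against the UMIs of the 12 proliferation genes (horizontal axis, linear to 10 and log above) in each plasma cell of NW (left) and ABX (right). Filled squares are led by Ighv11-2, and the dotted and dashed lines mark 3 and 10 UMIs, the latter reached by 6 NW and 30 ABX cells, with median Ig shares of 28.0% and 22.3%.

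Within each library, 46 of 5396 genes (0.852%) were at least 2-fold higher in cells with 3 or more proliferation UMIs in both libraries and 48 (0.89%) at least 2-fold lower. All 11 list genes tested were among the higher ones, as the split fixes. Outside the list were Ccna2, Hmmr and Nusap1, which act in the cell cycle and the spindle. Lower were the immediate-early genes Fosb (649 CPM in the other cells and 197 in these in NW, 385 and 80.1 in ABX) and Nr4a1 (306 and 73.9, 137 and 37.6), and Il7r, Ms4a4b and Serpina3f.

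Between the conditions, 252 of 5396 genes (4.67%) were at least 1.5-fold higher and 272 (5.04%) at least 1.5-fold lower in ABX plasma cells, with a median log2 ratio of -0.0013. Scaling by all UMIs gave 451 higher and 145 lower. Without the cells that had 3 or more proliferation UMIs, 102 of 4132 genes (2.47%) were higher and 154 (3.73%) lower. Without the cells under 20% Ig and Jchain, 128 of 4948 genes (2.59%) were higher and 183 (3.7%) lower. The highest ratios were those of Rrm2 (4.82, 3.67 to 6.27), Pclaf (4.70), Ccna2 (3.39), Tpx2 (3.25), Mcm5 (2.97) and Birc5 (2.94), all genes of DNA replication or mitosis. Mgp (3.92) and Dcn (3.13), matrix genes of fibroblasts, stood beside them, but 74.6% of the Mgp and 38.5% of the Dcn UMIs of ABX were in 1 cell. The lowest were Fscn1 (135 to 10.9 CPM, -3.64) and Fabp5 (93.0 to 15.1, -2.62), with 55.2% and 61.1% of their NW UMIs in 1 cell. Cxcl2 (-1.86), Rgs1 (-1.83), Epcam (-1.80), Lgr5 (-1.61), Egr1 (-1.57) and Adam8 (-1.54) followed. Of the secretory list 0 of 28 genes passed 1.5-fold (median -0.0011), of the degradation list 0 of 12 (-0.11) and of the regulators 0 of 9 (-0.13). The levels of Xbp1 and Prdm1 given above differed by less than 1.5-fold.

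Slc3a2, Slc7a5 and Asns, of the metabolism and stress response lists, were lower in ABX plasma cells. Slc3a2 (CD98 heavy chain), which carries large neutral amino acids into the cell with Slc7a5, was 2782 CPM in NW and 1338 in ABX, a log2 ratio of -1.06 (-1.13 to -0.99), and its median per cell was 16 UMIs in NW (0 to 112) and 9 in ABX (0 to 56). Slc7a5 (LAT1) was 129.9 and 65.7 CPM (-0.98, -1.32 to -0.66). Asns, asparagine synthetase, was 188 and 86.0 CPM (-1.13, -1.41 to -0.84), and was detected in 54.9% of the plasma cells in NW and 35.8% in ABX. The 3 genes were lower both in Ighv11-2 cells (-0.60, -1.13 and -1.26) and in cells with other Ighv genes (-0.94, -1.02 and -1.02). They were also lower without the cells with proliferation UMIs (-0.78, -0.92 and -1.07) and without the cells under 20% Ig (-0.85, -1.02 and -0.99). In B cells Slc3a2 gave -0.09 (-0.30 to 0.12), in macrophages 0.18 (0.14 to 0.21) and in T cells 0.12 (-0.01 to 0.25), so that for Slc3a2 the decrease was found in plasma cells and not in these populations. Slc7a5 and Asns were low outside the plasma cells, with at most 7.34 and 5.21 CPM in any of them, and Slc7a5 gave -0.46 (-0.94 to 0.01) in macrophages. In B cells Asns went the other way, higher in ABX than in NW, on few UMIs. Atf4, the factor that induces such genes, was 755 and 633 CPM (-0.25), and Chac1 50.2 and 39.2 (-0.36, -0.84 to 0.13). Of the metabolism list 1 of 8 genes was past 1.5-fold higher (Ldha, 0.65) and 2 lower (Slc3a2 and Slc7a5), and of the stress response list 0 of 6 and 1 of 6 (Asns). Of all 5396 genes 4.67% were higher and 5.04% lower. The neutral amino acid transporter Slc1a5, of the metabolism list, was 351 and 308 CPM (-0.19, -0.36 to -0.01) and did not pass 1.5-fold.

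**Figure D4:**
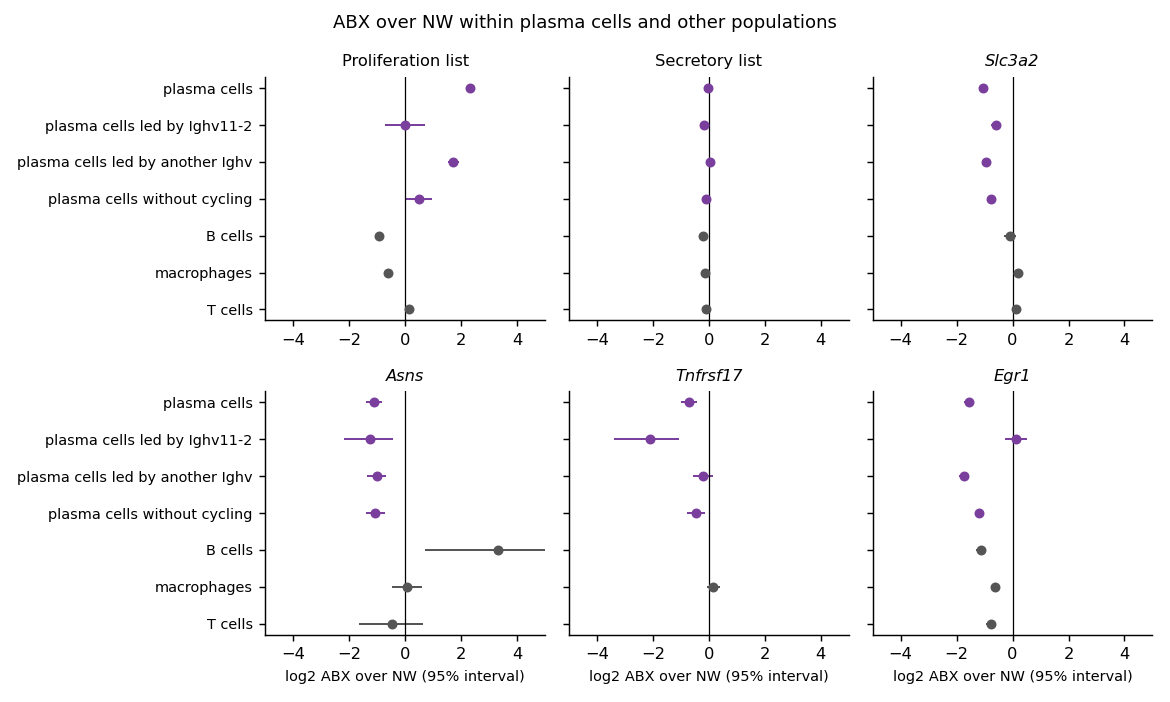
Log2 ratio of ABX over NW, with counting intervals, for 2 gene lists and 4 genes in all plasma cells, 3 subsets of them (purple) and 3 other populations (grey). A population with under 20 UMIs of a gene has no point, and the interval of Asns in B cells (1 and 25 UMIs) runs past the axis. Slc3a2 and Asns are below 0 in each plasma cell subset, the proliferation list is at 2.32 in all plasma cells, and Egr1 is below 0 also in B cells, macrophages and T cells.

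Immediate-early genes were lower in ABX plasma cells and also elsewhere. Of the 11 genes of a list of digestion-sensitive genes, 5 were at least 1.5-fold lower (Egr1, Nr4a1, Fosb, Fos and Junb) and 0 higher, with a median of -0.53. Over all genes 5.04% were lower and 4.67% higher. Egr1 was 740.4 CPM in NW and 249 in ABX plasma cells (-1.57, -1.73 to -1.42), and gave -1.14 in B cells, -0.76 in T cells and -0.62 in macrophages. Nr4a1 gave -1.41 in plasma cells, -0.80 in B cells and -1.59 in T cells. The summed list was -0.53 in plasma cells, -0.27 in B cells, -0.41 in T cells and -0.02 in macrophages. Within the plasma cells, Egr1 was 496 and 546 CPM in the Ighv11-2 cells (0.14, -0.25 to 0.52) and 945 and 284 in the cells with other Ighv genes (-1.73, -1.92 to -1.56). For Egr1 the lower level was thus found in the cells with other Ighv genes, while Fos was lower in both sets, at -0.70 and -0.72. The summed list gave -0.05 (-0.12 to 0.02) in the Ighv11-2 cells and -0.48 (-0.51 to -0.44) in the cells with other Ighv genes. The chemokine genes Ccl3 (-1.37) and Ccl4 (-1.01), with 183 and 85 NW UMIs, were lower too, and of the Ccl3 UMIs of NW a single cell held 30.1%. They were 2 of 4 tested genes of the effector list, with Ebi3 at -0.32 and Ccl5 at 0.17. The list's median was -0.67, but 0.22 over 2 genes with the barcodes of other lineages left out. How far handling of the libraries enters these values was not tested.

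Mature B cell genes were in part higher in ABX plasma cells. Of 11 identity genes with enough UMIs 4 were at least 1.5-fold higher, among them Fcmr (17.7 to 65.7 CPM, 1.89), Blk (27.3 to 66.6, 1.29) and Bach2 (26.6 to 42.5, 0.68, but 0.16 without the cells with proliferation UMIs), and 2 lower, Cd83 (-0.85) and Spi1 (-0.75), a myeloid factor as well. Among all genes tested 4.67% were higher and 5.04% lower. Without the cells with proliferation UMIs, Fcmr stayed at 1.69 (0.95 to 2.51). Without the cells under 20% Ig, Fcmr was 1.69 (1.02 to 2.41) and Bach2 0.065 (-0.59 to 0.74). The share of B cells among all cells was also higher in ABX, and Fcmr UMIs were higher in ABX macrophages too (1.66). The part of free B cell RNA in the plasma cell values was not tested. MHC class II genes gave a median of -0.25, with 0 of 6 past 1.5-fold, and 0.12 with the barcodes of other lineages left out. Their sum gave 0.39 (0.31 to 0.46) in the Ighv11-2 cells and -0.32 (-0.36 to -0.29) in the cells with other Ighv genes.

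The counts of survival and homing genes past 1.5-fold were near the shares of all genes (4.67% higher, 5.04% lower), and their members are given as values. Tnfrsf17 (BCMA) was 151 CPM in NW and 92.1 in ABX plasma cells (-0.71, -0.9999 to -0.42). In the Ighv11-2 cells it was 206 and 47.5 (-2.12, -3.39 to -1.05) on 62 and 8 UMIs, and in cells with other Ighv genes 140.5 and 122 (-0.21, -0.56 to 0.15). Without the cells under 20% Ig the ratio over all plasma cells was -0.47 (-0.76 to -0.18), under 1.5-fold. Bcl2l11 (BIM), which promotes apoptosis, was 103 and 157 (0.62, 0.33 to 0.91), and Mcl1, which opposes it, 737 and 735. Of 14 survival genes 1 was past 1.5-fold higher and 1 lower, with a median of -0.015. Cxcr4, the receptor for CXCL12, was 421 and 450 CPM (0.10, -0.06 to 0.25), and the integrin gene Itga4 383 and 455 (0.25, 0.09 to 0.40). Ccr10, a mucosal homing receptor of plasma cells, had 37 and 36 UMIs, with 0 in B cells, and the Ighv11-2 cells held 18 of them in NW and 0 in ABX. Ccr2 was the 1 of 12 homing genes past 1.5-fold (185 to 84.6 CPM, -1.13, and -0.39 without the cells with proliferation UMIs), and is also a monocyte gene. Plac8, of the B-1 list, was 175 and 285 CPM (0.70), the 1 of 5 tested genes of that list past 1.5-fold. The others were Bhlhe41 (0.28), Ctla4 (0.26), Zcwpw1 (-0.016) and Spn (-0.25). Of the interferon-stimulated genes, 2 of 4 were lower, Ifi27l2a (-1.01) and Bst2 (-0.62), and Ifi27l2a was also lower in B cells (-0.57), macrophages (-0.52) and T cells (-0.54). Il10 had 24 and 72 UMIs, of which 22 were in 1 ABX cell.

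Slpi, singled out after its values were seen, was 60.5 CPM in NW and 296 in ABX plasma cells (2.29, 1.95 to 2.64), and 11.6% and 21.1% of the cells had a UMI. A single cell held 45.1% of the NW and 26.7% of the ABX UMIs. In B cells it was 4.72 and 6.46 CPM.

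Lgr5, a Wnt-pathway receptor best known from intestinal stem cells, followed the light chain. Its 961 NW and 493 ABX UMIs lay mostly in the lambda plasma cells. In NW the 4 cells led by Iglc2 had 12 to 45 Lgr5 UMIs and the 5 led by Iglc3 had 82, 93, 148, 202 and 210. No NW cell was led by Iglc1. In ABX the 6 cells led by Iglc2 had 23 to 43 and the 1 led by Iglc3 had 75, while the 8 led by Iglc1 had 0 to 4. Kappa plasma cells had a median of 0 (highest 13) in NW and 0.5 (highest 12) in ABX. Every plasma cell led by Iglc2 in ABX, and by Iglc3 in either library, was thus above every kappa cell of its library, and the Iglc1 cells were within the kappa range. The log2 difference of lambda over kappa cells was 6.41 (6.13 to 6.70) in NW and 4.44 (4.18 to 4.70) in ABX. Of 5359 genes compared in this way, 16 (0.299%) were at least 2-fold higher and 112 (2.09%) lower in both libraries. Among kappa plasma cells alone the ABX over NW ratio of Lgr5 was 0.18 (-0.16 to 0.51), in place of -1.61. Lambda B cells had up to 45 Lgr5 UMIs in NW and up to 2 in ABX. Whether these UMIs come from Lgr5 mRNA was not tested.

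**Figure D5:**
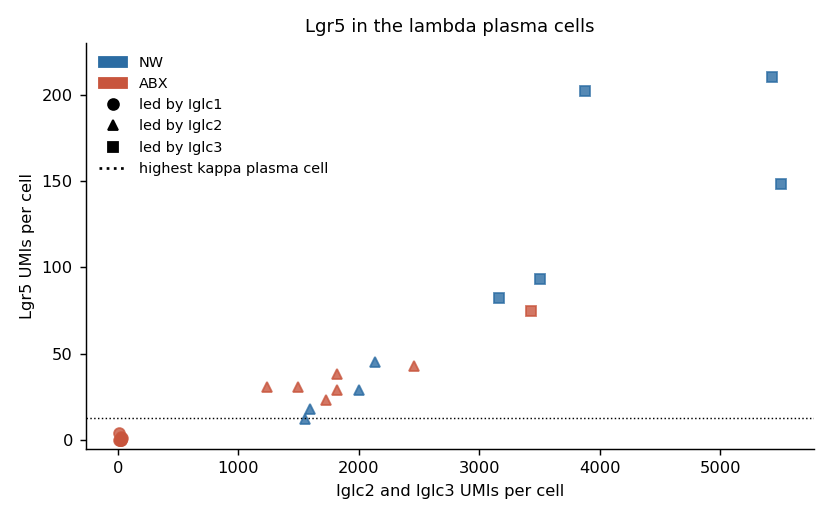
Lgr5 UMIs (vertical axis) against Iglc2 and Iglc3 UMIs (horizontal axis) in the 9 NW (blue) and 15 ABX (red) lambda plasma cells, with the leading constant gene as the symbol and the highest kappa plasma cell, 13 UMIs, as the dotted line. The cells led by Iglc3 reach 210 Lgr5 UMIs and those led by Iglc1 at most 4.

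Of the 9 antibody tags examined, CD44, CD1d and CD62L were lower on plasma cells than on B cells. CD44 had a median of 38 UMIs in NW and 26.5 in ABX plasma cells, against 131 and 127 on B cells, and CD1d 4 and 4 against 17 and 15. CD62L (L-selectin) had 3 and 2 against 6 and 6. The other tags were close to those on B cells, such as CD69 with 6 and 4 against 6 and 5 and TCR-beta with 12 and 10.5 against 12 and 10, and CD4 had 2 and 2 against 1 and 1. In the other cells of the libraries, Tnfsf13b (BAFF) differed by 0.29 (0.12 to 0.46) on the log2 scale between ABX and NW and Cxcl12 by 0.23 (0.16 to 0.29). Macrophages held 70.6% of the Cxcl12 UMIs in NW and 40.9% in ABX, and within them Cxcl12 went the other way, from 66.4 to 61.0 CPM, while Tnfsf13b was 10.6 and 14.5. Over all cells other than plasma cells Il5, which supports B-1 cells, gave -1.44 (-1.80 to -1.09) on 300 and 87 UMIs and Cxcl13 -0.06 (-0.14 to 0.02). In the same cells Tnfsf13 (APRIL) gave -0.65 (-1.53 to 0.18) on 38 and 19 UMIs, Il6 -0.29 (-0.66 to 0.08) and Il10 -1.20 (-1.46 to -0.94). Tgfb1 gave 0.02 (-0.05 to 0.10), Ccl25 0.31 (0.02 to 0.60) and Ccl28 0.86 (-0.68 to 2.49) on 7 and 10 UMIs. The libraries were enriched for CD45+ cells, so stromal cells enter these values only in part.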

How the data were processed

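Gene and antibody UMI counts per cell (BD Rhapsody, whole transcriptome and AbSeq) were taken as the authors deposited them, raw and in 1 table per library. The submitters' processing notes name the BD WTA Rhapsody Analysis Pipeline 1.8, R 3.6.0 and Seurat 3.0.1. Cells with at least 500 gene UMIs, 200 genes and at most 25% mitochondrial UMIs were kept. No cell type annotation was used, doublets were kept and no doublet caller was run. Macrophages had at least 10 UMIs of C1qa, C1qb and C1qc and T cells at least 3 of Cd3e, Cd3d and Cd3g, both without Cd79a. A heavy class needed at least 10 constant UMIs and 50% of them, kappa at least 80% of 10 light constant UMIs and lambda a kappa share of at most 20%. UMIs were summed per library. Genes needed 100 UMIs over both libraries, and a call was a 1.5-fold ratio between the conditions or a 2-fold ratio in both libraries within them, with no test. An absent gene was set at a floor of 3 counts. Named beyond the gene lists were the 8 highest and 8 lowest ratios among genes with a UMI in at least 10% of the cells of 1 library, and the 5 most frequent heavy and kappa variable genes. Other variable genes, Slpi, and the Ighv11-2, proliferation and light chain comparisons were chosen after values were seen. The plasma cells and the lists were chosen with earlier results of these data known. A gene of the B cell identity list is not reported here. The step from summed counts to gene ratios between the conditions was tested on simulated data with known fold changes. The cell filter, the selection rule and the class, variable gene and proliferation calls were not simulated. Python 3.11.15, numpy 2.4.6, scipy 1.17.1 and matplotlib 3.10.9 were used. Alternatives changed the limits, depth, scaling, filters and mixed barcodes.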

Additional observations from a re-analysis of the deposited data

How the results depend on the processing

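No paired analysis was possible because each condition was 1 library, and no library could be left out. Of 267 alternative values for 38 results, 208 moved by less than the error or the 1.5-fold limit, 58 moved further and 1 reversed. The cause was not tested for any of them beyond what each alternative removes. IgA against IgM plasma cells, and IgA cells alone, could not be compared with 2 and 1 cells. Looser limits of the rule gave 172 NW and 270 ABX plasma cells and stricter ones 133 and 198.

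Leaving out cells with 5 UMIs of any other lineage kept 10 NW and 61 ABX cells. The share ratio was then 5.98, IgA 0% in both, IgM 90% and 98.4%, the share with 3 proliferation UMIs 0% and 14.8%, Ighv11-2 16.7% in NW and the Ig share 46.0% in ABX. With these cells 76 genes were higher and 40 lower between conditions, and 360 lower than in B cells. List medians were 0.26 (secretory), 0.54 (ER), 0.54 (degradation), 0.14 (stress response), 0.45 (survival), 0.65 (homing), 0.36 (MHC class II), 0.64 (B-1), 0.17 (metabolism) and -0.82 (digestion-sensitive). With the limits of 30 and 10 UMIs, added after seeing the data, the medians were 0.12 for MHC class II, 3.22 for proliferation and 0.22 for effector products, which reversed the -0.67 otherwise found.

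At 5 proliferation UMIs the shares were 6.10% and 15.9%, and at 10 they were 3.66% and 12.2%. Scaled by all UMIs, 451 genes were higher and 145 lower in ABX, 317 and 1942 against B cells, 4 higher in Ighv11-2 cells, 20 lower in cells with proliferation UMIs and 27 higher in lambda cells, with medians of 0.15 (ER) and -0.12 (MHC class II). A filter of 50 UMIs gave 558 and 565 genes between conditions, 21 and 74 for Ighv11-2, 101 and 134 for proliferation and 42 higher for lambda, and one of 10 UMIs 1315 and 1330. The effector median was -0.12 and -0.22 with these filters. With cells weighted equally the digestion-sensitive median was -0.32. Without cells with proliferation UMIs, 102 genes were higher and 154 lower between conditions and 2 and 10 for Ighv11-2, with medians of -0.16 (secretory), -0.053 (MHC class II) and -0.33 (digestion-sensitive). Without the cells under 20% Ig, a limit added after seeing the data, 128 genes were higher, and the proliferation median was 1.35 over 4 genes.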
